A study of Mus musculus with 12 samples.

Results

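Nanos3, Dnd1 and Lin28a are 3 genes for RNA-binding proteins of the germ line, taken by symbol from a deposited expression table of 12955 genes. They were described in 12 bulk RNA-seq libraries of mouse primordial germ cell-like cells (PGCLCs), cells made in culture that resemble the embryonic founders of sperm and eggs. All libraries came from male embryonic stem cells of the J1 strain that had formed embryoid bodies, and cells were sorted with antibodies to CD61 and SSEA1. The 6 groups held 2 libraries each. At day 2 they were EV, OE, DMSO and dTAG13, and at day 6 they were EV and OE. The labels do not spell out EV and OE, give no treatment for them and name Tex10 as the gene the series is about. DMSO and dTAG13 were applied for 2 days. dTAG13 is a compound that sends a tagged protein to the ubiquitin system for degradation, and the labels used here do not say which protein carries the tag or which cells carry it. Nothing in the labels says that the 2 libraries of a group came from separate cultures, so p-values measure only the spread between these libraries, which may be technical.

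All of these proteins act on RNA. NANOS3 is a zinc-finger protein that works with PUMILIO proteins and the CCR4-NOT deadenylase to repress messenger RNAs, and mice without it lose their primordial germ cells. DND1 is an RNA-binding partner of NANOS proteins whose loss in mice also removes germ cells and, on some strain backgrounds, leads to testicular teratomas. LIN28A binds the hairpin precursors of let-7 microRNAs and blocks their maturation, and let-7 in turn represses Lin28a and many growth genes.

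Tex10 was measured first as a check of the labels. It was 119 and 145 FPKM (mapped fragments scaled to transcript length and to the library's total) in day 2 EV against 403 and 378 FPKM in day 2 OE, and 65.7 and 81.5 against 259 and 269 FPKM at day 6. Its messenger RNA was 61.7 and 56.8 FPKM with DMSO and 45.2 and 36.5 FPKM with dTAG13, which acts on protein. The DMSO mean was 1.45 times the dTAG13 mean, and the day 2 EV mean was 2.22 times the DMSO mean. Both differences passed in the limma test described below (adjusted p = 0.0425 and 0.0104). Replicate 1 of dTAG13 stood apart before any test: 2008 of its genes (15.5%) were listed at 0, against 18 to 127 genes in the other 11 libraries, so the fits were repeated without it. Of 18 listed germ cell markers, 16 were in the table, and their summed level was 9288 to 12685 FPKM. Most of this sum was Dppa5a, at 6903 to 10023 FPKM. Itgb3, the gene for CD61, was 0 to 1.29 FPKM at day 2 and 1.72 to 4.39 FPKM at day 6. The naive pluripotency list had 10 of 10 genes in the table, at 974 to 1408 FPKM. These sums alone do not separate germ cells from pluripotent cells. The endoderm list had 1 of 8 genes in the table, at no more than 1.104 FPKM, and the fibroblast list had 1 of 7, at no more than 0.834 FPKM. The mesoderm list had 7 of 11 at 4.82 to 17.1 FPKM, and the neural ectoderm list 3 of 7 at 46.3 to 129 FPKM, most of it Tubb3, a neuronal tubulin at 42.7 to 125 FPKM that was named after its values were seen. In such bulk samples, fewer cells of a type and less RNA per cell cannot be told apart.

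Changes are differences of group means of log2(FPKM + 1) with their standard error (SE) from one limma model over all 12 libraries, and an adjusted p (Benjamini-Hochberg, over 12059 genes tested) below 0.05 counted as a change. All 3 genes were detected in every library and passed the filter on low values. The genes took different courses. Nanos3 was high at day 2, lower in OE and lower again at day 6. Dnd1 was highest in day 2 OE and lowest with dTAG13. Lin28a had its lowest levels with dTAG13 and in day 6 OE.

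**Figure D1:**
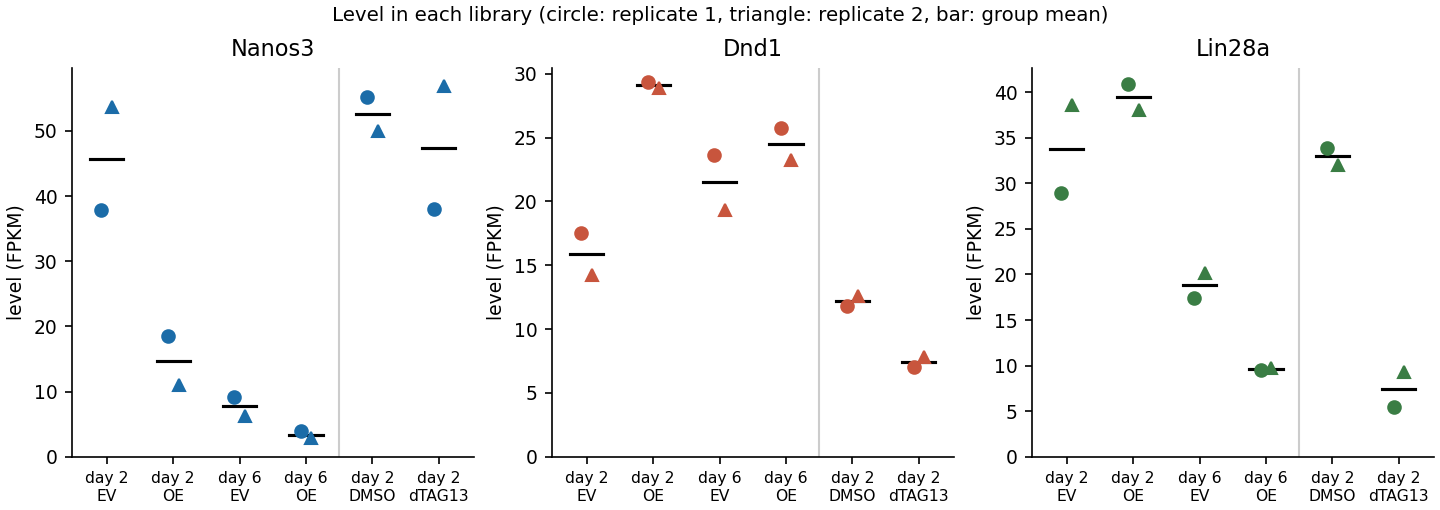
FPKM of Nanos3, Dnd1 and Lin28a in each library; points are libraries, bars are means of 2, and the 6 groups run along the horizontal axis. Nanos3 falls from 37.8 and 53.6 in day 2 EV to 3.89 and 2.84 in day 6 OE, Dnd1 is highest in day 2 OE, and Lin28a is lowest with dTAG13.

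Nanos3 (ENSMUSG00000056155.6, mm10 chr8:84173731-84185217, minus strand) has the microRNA genes Mir181c and Mir181d within its annotated span, and neither was measured here. Its level was 37.8 and 53.6 FPKM in day 2 EV and 18.5 and 10.99 FPKM in day 2 OE. Both OE libraries lay below both EV libraries, and the ratio of the means was 3.10. The change in limma was -1.59 (SE 0.30, 95% interval -2.25 to -0.93, adjusted p = 0.0462), so Nanos3 fell in OE at day 2. In this comparison 0.406% of tested genes fell and 0.44% rose, and Nanos3 ranked 22nd by size of change. The call was close to the threshold. It was lost without EV replicate 1 (-1.83, adjusted p = 0.152), EV replicate 2 (-1.34, adjusted p = 0.378), OE replicate 1 (-1.94, adjusted p = 0.102) or OE replicate 2 (-1.24, adjusted p = 0.258), by limma, and it was kept without replicate 1 of dTAG13 (adjusted p = 0.00111). A pseudocount of 0.1 (-1.65, adjusted p = 0.0603) and no filter on low values (adjusted p = 0.050002) also ended it.

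At day 6 Nanos3 was 9.22 and 6.29 FPKM in EV and 3.89 and 2.84 FPKM in OE. The groups again did not overlap, with a ratio of 2.31. Here the limma change of -0.99 (SE 0.30, 95% interval -1.66 to -0.33, adjusted p = 0.104) did not pass, in a comparison where 1.79% of genes fell and 1.92% rose. Without replicate 1 of dTAG13, a library outside this comparison that adds to the shared spread, the same change passed (adjusted p = 0.0077). The difference between the OE effects at the 2 days was 0.59 (95% interval -0.34 to 1.53, adjusted p = 0.704 in limma), so no difference in size between days was shown. For this difference 0.0663% of genes were called higher and 0.166% lower.

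From day 2 to day 6 Nanos3 fell in both series of cells. In EV the mean was 5.90 times higher at day 2 than at day 6, a limma change of -2.42 (SE 0.30, 95% interval -3.08 to -1.75, adjusted p = 0.000626). In OE the ratio was 4.39 and the change -1.82 (95% interval -2.48 to -1.16, adjusted p = 0.00148). Time moved many genes: 10.5% fell and 13.3% rose in EV, and 14.7% fell and 17.5% rose in OE. By rank among all genes, Nanos3 in EV was at the 78.7th and 83.2nd percentile on day 2 and the 51.9th and 43.3rd on day 6. In OE it was at the 64.9th and 56.3rd on day 2 and the 34.5th and 28.5th on day 6.

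With DMSO, Nanos3 was 55.2 and 50.01 FPKM, and with dTAG13 it was 37.95 and 56.9 FPKM. One dTAG13 library lay below both DMSO libraries and the other above them. The change was -0.17 (95% interval -0.84 to 0.49, adjusted p = 0.724 in limma), and its sign turned without replicate 1 of dTAG13 (0.11, adjusted p = 0.802). In order of group means, DMSO (52.6 ± 3.69), dTAG13 (47.4 ± 13.4) and day 2 EV (45.7 ± 11.2; SD, n = 2) overlapped. Day 2 OE (14.8 ± 5.33), day 6 EV (7.75 ± 2.07) and day 6 OE (3.36 ± 0.737) each lay below the group before it without overlap.

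Dnd1 (ENSMUSG00000044595.10, mm10 chr18:36763671-36766214, minus strand) is a short gene of 4 exons with an annotated transcript of 1451 bases. Its level was 17.5 and 14.2 FPKM in day 2 EV and 29.3 and 28.9 FPKM in day 2 OE. The OE libraries were both above the EV libraries and close to each other, with a ratio of means of 1.83. The change of 0.84 (SE 0.16, 95% interval 0.48 to 1.21) missed the threshold in limma (adjusted p = 0.0514), and passed without replicate 1 of dTAG13 (adjusted p = 0.00176). At day 6 Dnd1 was 23.7 and 19.3 FPKM in EV and 25.7 and 23.2 FPKM in OE, and these libraries overlapped. The change was 0.19 (95% interval -0.18 to 0.55, adjusted p = 0.617 in limma). The difference between the OE effects, day 6 minus day 2, was -0.66 (95% interval -1.17 to -0.14, adjusted p = 0.319), and it passed without replicate 1 of dTAG13 (adjusted p = 0.0411).

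With DMSO, Dnd1 was 11.8 and 12.6 FPKM, and with dTAG13 it was 7.03 and 7.78 FPKM. Both dTAG13 libraries lay below both DMSO libraries, and the DMSO mean was 1.65 times higher. Dnd1 fell by the limma test (-0.65, SE 0.16, 95% interval -1.02 to -0.29, adjusted p = 0.0323), where 8.21% of tested genes fell and 4.01% rose. It also passed without replicate 1 of dTAG13 (-0.59, adjusted p = 0.0217), but not without DMSO replicate 1 (-0.69, adjusted p = 0.145) or DMSO replicate 2 (-0.61, adjusted p = 0.178). The median over all genes was shifted by -0.13 here, and the call was lost under median-ratio scaling (-0.57, adjusted p = 0.0791) and quantile normalization (-0.52, adjusted p = 0.0871). These scalings also moved the share of called genes that were higher from 32.8% to 54.3% and 50.9%, and quantile normalization moved it from 28.6% to 43.0% for the difference of OE effects.

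From day 2 to day 6 the Dnd1 mean was 1.35 times higher in EV, without overlap, and the limma change of 0.42 (95% interval 0.05 to 0.78, adjusted p = 0.0947) did not pass. It passed without replicate 1 of dTAG13 (adjusted p = 0.0186). In OE the change was -0.24 (95% interval -0.61 to 0.12, adjusted p = 0.292). In order, day 2 OE (29.1 ± 0.321 FPKM; SD, n = 2) was first and did not overlap day 6 OE (24.5 ± 1.76), which overlapped day 6 EV (21.5 ± 3.07). Below these, without overlap, came day 2 EV (15.9 ± 2.32), DMSO (12.2 ± 0.537) and dTAG13 (7.41 ± 0.533). Both day 2 EV libraries lay above both DMSO libraries, with EV 1.30 times DMSO, and the change did not pass (-0.35 for DMSO against EV, 95% interval -0.71 to 0.02, adjusted p = 0.589 in limma), a comparison with 0.249% of genes higher and 0.141% lower.

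The 3′ end of Dnd1 shares 140 bases with the annotated span of Wdr55, a gene on the opposite strand, and the counting is not stated to use strand. Wdr55 was 77.3 and 65.6 FPKM in day 2 EV and 108 and 97.4 FPKM in day 2 OE, so the neighbour was also higher in both OE libraries. Its limma change was 0.52 (adjusted p = 0.344). With dTAG13 its libraries, 35.7 and 61.6 FPKM, were both below DMSO at 69.5 and 62.2 FPKM (-0.48, adjusted p = 0.153). Reads in the shared bases cannot be assigned from these files, and their part in the Dnd1 values was not tested. From day 2 to day 6 in OE, Wdr55 fell (-1.18, adjusted p = 0.00231) while the Dnd1 change was -0.24.

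**Figure D2:**
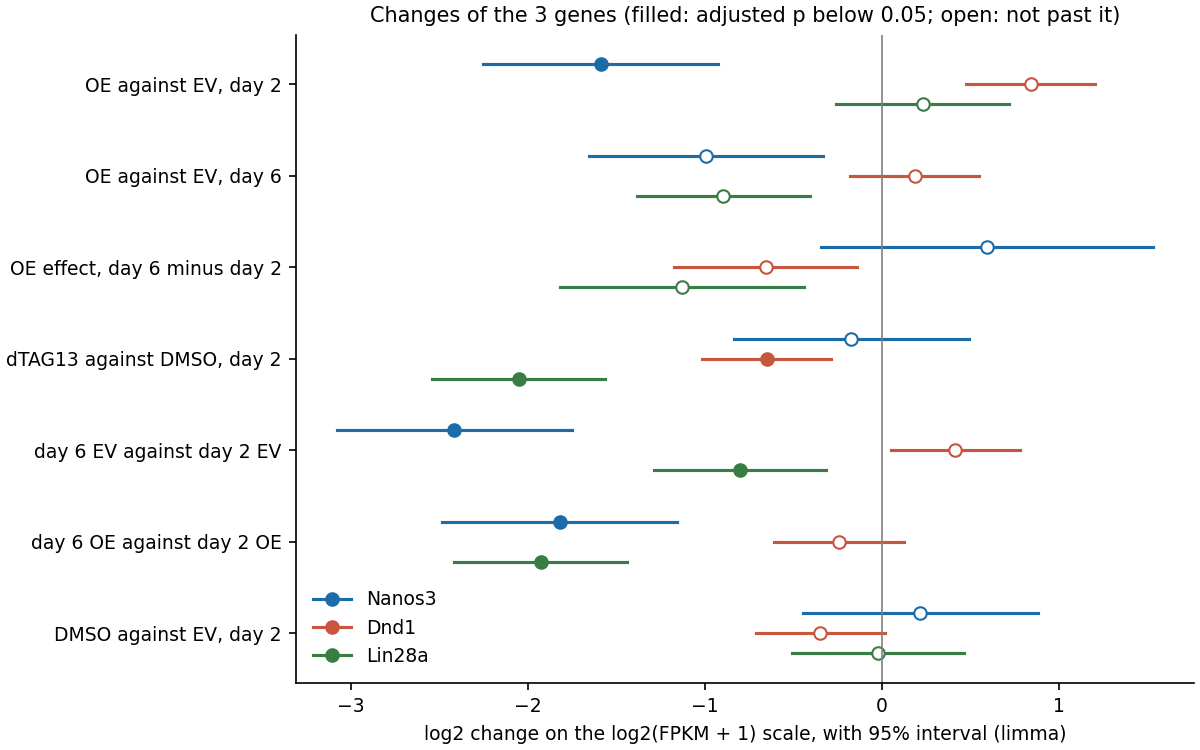
Log2 change of each gene in 7 comparisons with its 95% interval from limma; filled points have an adjusted p below 0.05. Lin28a with dTAG13 (-2.05) and Nanos3 over time in EV (-2.42) lie far from zero, and the OE effect on Dnd1 at day 2 (0.84) is just outside the threshold.

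Lin28a (ENSMUSG00000050966.9, mm10 chr4:134003330-134018841, minus strand) has an annotated transcript of 3505 bases, of which 2775 are 3′ UTR. The antisense gene Gm13061 overlaps its span by 695 bases and was not measured here, so reads of the 2 genes there cannot be told apart without strand. The let-7 microRNAs that LIN28A restrains all carry one seed in the RefSeq table of build GRCm38.p6: 11 loci with 9 distinct mature names share the letters GAGGUAG at bases 2 to 8. Of their 11 hairpins, 8 have GGAG, the letters bound by the LIN28 zinc knuckles, after the mature sequence, and 44.5% of all 1005 hairpins of the table have it anywhere. The sequences below show this circuit, with the seed in capitals in the mature forms and GGAG in capitals in the let-7g hairpin (chr9:106178840-106178927, plus strand).
mmu-let-7a-5p: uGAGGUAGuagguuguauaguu
mmu-let-7g-5p: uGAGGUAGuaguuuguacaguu
Mirlet7g hairpin: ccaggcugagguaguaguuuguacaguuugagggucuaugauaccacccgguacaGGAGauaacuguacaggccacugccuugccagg

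The Lin28a 3′ UTR holds the letters that pair with this seed, CTACCTC on the transcript strand, in 2 places, at UTR bases 909 to 915 and 1547 to 1553 (GENCODE M21; windows chr4:134005186-134005211 and chr4:134004548-134004573). Among 3239 genes with a 3′ UTR at least as long, 16.1% had at least 1 match within the same number of bases and 1.73% had at least 2. A match is a description of letters, and let-7 itself was not measured in these poly(A) libraries. The matches stand in capitals, 5′ to 3′.
Lin28a first match: gcacagcctgttgaaCTACCTCattt
Lin28a second match: gagatcgccacaaacCTACCTCactg

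Lin28a was 33.9 and 32.0 FPKM with DMSO and 5.51 and 9.26 FPKM with dTAG13. Both dTAG13 libraries lay far below both DMSO libraries, and the DMSO mean was 4.46 times higher. The limma change was -2.05 (SE 0.22, 95% interval -2.54 to -1.57, adjusted p = 0.000709), the 67th by size in this comparison. Without replicate 1 of dTAG13 the change was -1.73 (adjusted p = 3.06e-05), and without replicate 2 it was -2.38. Fitted on the 4 libraries of the comparison alone, where limma called 0 genes in all, the adjusted p was 0.306. In the same libraries the summed level of 4 trophoblast and amnion markers out of 7 listed was 10.6 to 25.6 FPKM with dTAG13 against 7.43 to 8.73 FPKM with DMSO, and that of 8 of 11 formative epiblast markers was 86.3 to 90.7 against 106 to 113 FPKM. The neural ectoderm sum was 46.3 to 59.0 FPKM against 77.8 to 79.9 FPKM. In the trophoblast sum Krt7, named after its values were seen, was 0 and 12.6 FPKM with dTAG13. Of 10 naive pluripotency markers 4 fell and 0 rose, against 8.21% and 4.01% of all genes. Their sum was 974 to 1307 FPKM with dTAG13 against 1320 to 1325 FPKM with DMSO. In it Klf2, named after its values were seen, differed between replicates, at 122 and 29.0 FPKM with dTAG13 and 43.5 and 121 FPKM with DMSO. Of 6 formative epiblast markers tested, 1 fell and 0 rose, beside the same shares of all genes. Of 16 germ cell markers 3 rose and 2 fell. Those with the largest changes were Dppa3 (0.96), Sall4 (-0.72) and Tfap2c (0.68). Without replicate 1 of dTAG13 these changes were 0.90, -0.44 and 0.48, so those of Sall4 and Tfap2c rested partly on that library. The part of these markers in the Lin28a result was not tested.

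In day 2 EV Lin28a was 28.9 and 38.6 FPKM, and in day 2 OE it was 40.8 and 38.1 FPKM. These libraries overlapped, and the change was 0.23 (95% interval -0.26 to 0.72, adjusted p = 0.797 in limma). At day 6 it was 17.5 and 20.1 FPKM in EV and 9.48 and 9.76 FPKM in OE. The day 6 OE libraries were nearly equal and lay below both EV libraries, with EV 1.95 times OE. The change of -0.90 (SE 0.22, 95% interval -1.38 to -0.41, adjusted p = 0.0536 in limma) just missed the threshold, and it passed without replicate 1 of dTAG13 (adjusted p = 0.00058). The difference between the OE effects, day 6 minus day 2, was -1.13 (95% interval -1.82 to -0.44, adjusted p = 0.19), and passed without that library (adjusted p = 0.00372). The summed formative epiblast markers were also lower in day 6 OE, at 45.7 to 53.1 FPKM against 89.9 to 101 FPKM in EV. So were the neural ectoderm sum (48.4 to 50.6 against 66.8 to 70.0 FPKM) and the naive pluripotency sum (1036 to 1061 against 1335 to 1408 FPKM). Within the naive sum, Zfp42 was 431 and 408 FPKM in OE against 722 and 771 FPKM in EV. Of the 10 naive genes 1 rose and 2 fell, where 1.92% of all genes rose and 1.79% fell. Their median change was 0.16 against 0.05 over all genes, so the list as a whole was not lower. The germ cell marker sum was higher in OE (12652 to 12685 against 9288 to 10114 FPKM). Most of this sum was Dppa5a, at 9934 and 10023 FPKM in OE against 7718 and 6903 FPKM in EV. Of 16 germ cell markers tested, 4 rose and 0 fell. The part of these markers in the lower Lin28a and Nanos3 levels was not tested.

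From day 2 to day 6 Lin28a fell in OE from a mean 4.10 times higher at day 2 (limma change -1.93, 95% interval -2.42 to -1.44, adjusted p = 0.000203). In EV the ratio was 1.80 and the change -0.80 (SE 0.22, 95% interval -1.29 to -0.31, adjusted p = 0.0253). The EV call was lost without day 2 EV replicate 2 (-0.60, adjusted p = 0.174), day 6 EV replicate 1 (-0.70, adjusted p = 0.163) or day 6 EV replicate 2 (-0.90, adjusted p = 0.0715). In order, day 2 OE (39.5 ± 1.96), day 2 EV (33.8 ± 6.83) and DMSO (32.9 ± 1.32 FPKM; SD, n = 2) overlapped, and day 6 EV (18.8 ± 1.90), day 6 OE (9.62 ± 0.196) and dTAG13 (7.39 ± 2.65) followed without overlap. DMSO against EV at day 2 gave -0.02 for Lin28a (95% interval -0.51 to 0.47, adjusted p = 1.0) and 0.22 for Nanos3 (95% interval -0.45 to 0.88, adjusted p = 0.948).

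Lin28b, the paralog that also blocks let-7, was lower than Lin28a in every library. The Lin28a to Lin28b ratio, on the FPKM scale per length, was 5.92 and 6.47 with DMSO and 1.04 and 3.22 with dTAG13. It was 17.8 and 11.6 in day 2 OE, above every other library. Lin28b was low there, at 2.29 and 3.29 FPKM, below both day 2 EV libraries at 3.56 and 5.83 FPKM. The Lin28a libraries of these groups overlapped. Lin28b itself was 5.73 and 4.95 FPKM with DMSO and 5.29 and 2.88 FPKM with dTAG13, so these groups overlapped.

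The order of the 3 genes per length changed between groups. Nanos3 was highest, then Lin28a, then Dnd1 in both day 2 EV libraries, both DMSO libraries and dTAG13 replicate 2. In dTAG13 replicate 1 the order was Nanos3, Dnd1, Lin28a. In both day 2 OE libraries and in day 6 EV replicate 2 it was Lin28a, Dnd1, Nanos3. In both day 6 OE libraries and in day 6 EV replicate 1 it was Dnd1, Lin28a, Nanos3. The Nanos3 to Dnd1 ratio of levels was 2.16 and 3.77 for day 2 EV and 0.63 and 0.38 for day 2 OE. At day 6 it was 0.39 and 0.33 for EV, against 0.15 and 0.12 for OE. With dTAG13 it was 5.399 and 7.31, against 4.68 and 3.98 with DMSO. The ratio fell below 1 in all OE libraries and in day 6 EV, and nowhere else. Across the 12 libraries, Pearson's r of log2(FPKM + 1) was -0.73 for Nanos3 with Dnd1, 0.29 for Nanos3 with Lin28a and 0.37 for Dnd1 with Lin28a. Without replicate 1 of dTAG13 the last 2 were 0.50 and 0.09. These points share 6 groups and are a description.

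The genes next to each member were followed in the same comparisons. For Nanos3 the 10 nearest tested genes, 5 on each side, had a median change of 0.14 in OE at day 2 (range -0.08 to 0.39), and 0 of 10 passed. The nearest on each side, 4930432K21Rik and Zswim4, had changes of 0.17 and 0.21. Around Lin28a the median with dTAG13 was -0.05 (range -1.30 to 1.14), and 0 of 10 passed. The nearest tested gene on each side, Dhdds, for an enzyme of dolichol synthesis, and Cd52, for a leukocyte surface glycoprotein, had changes of 0.24 and 0.11 there. Around Dnd1 the median was 0.21 in OE at day 2 and -0.09 with dTAG13, with 0 of 10 passing in either. Besides Wdr55, the nearest was Hars, a histidyl-tRNA synthetase, at 0.23 and -0.04. Over time, 1 of the 10 Nanos3 neighbours rose and 3 fell in EV, where 13.3% of all tested genes rose and 10.5% fell. In OE 0 rose and 4 fell, against 17.5% and 14.7% of all genes, and the neighbours' medians were -0.18 in EV and -0.38 in OE.

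**Figure D3:**
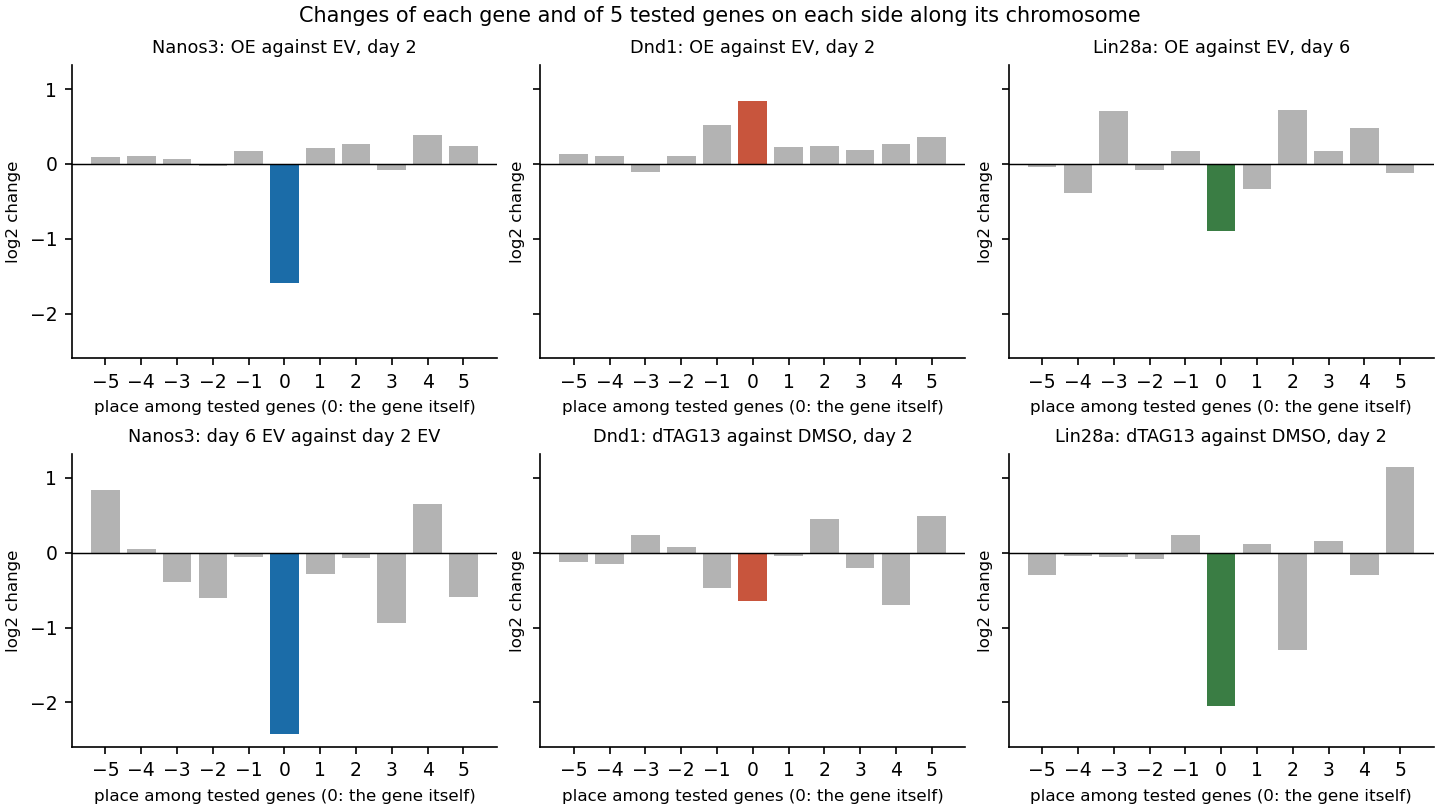
Log2 change (vertical axis) of each gene (coloured bar at place 0) and of the 5 nearest tested genes on each side (grey bars), in 2 comparisons per gene. Nanos3 in OE at day 2 (-1.59) and Lin28a with dTAG13 (-2.05) lie below all of their neighbours.

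The lists that follow are read against all tested genes. Without replicate 1 of dTAG13, calls over all genes rose to 8.01% higher and 6.02% lower in OE at day 2, 14.3% and 10.96% in OE at day 6, and 6.34% and 17.0% with dTAG13. Over time they rose to 29.4% higher and 22.7% lower in EV and 33.2% and 25.7% in OE. The list counts without that library are to be read against these shares.

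The partners of LIN28 and let-7 in microRNA processing were taken as a list. Of 12 components, without Lin28a, 0 passed in OE at either day. Leaving out replicate 1 of dTAG13, 1 was higher and 0 lower at day 2, and 2 were higher and 1 lower at day 6. With dTAG13 1 fell and 0 rose, where 8.21% of all genes fell and 4.01% rose, and the median was -0.15 against -0.13 over all genes. With that library left out 3 fell and the median was -0.27 against -0.17 over all genes. The 1 was Drosha, the nuclear enzyme that cuts microRNA precursors (-0.71, adjusted p = 0.0239 in limma; -0.57 without that library). From day 2 to day 6 in EV, 3 fell and 1 rose, against 10.5% and 13.3% of all genes. Those that fell were Dgcr8, the partner of Drosha (-1.79, adjusted p = 0.0446), the export factor Xpo5 (-0.82, adjusted p = 0.00682) and the Dicer partner Tarbp2 (-0.75, adjusted p = 0.00493). Dgcr8 was 110.6 and 20.6 FPKM in day 2 EV and 12.7 and 13.6 FPKM in day 6 EV. The size of its change thus rests largely on 1 library, day 2 EV replicate 1. In OE over time 3 fell and 2 rose, against 14.7% and 17.5% of all genes. Tarbp2 (-1.19) and Xpo5 (-0.96) were among those that fell. Zcchc11, the uridylyltransferase that works with LIN28A on let-7 precursors, rose (1.25, adjusted p = 0.0205 in limma).

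Of 21 textbook let-7 targets, Lin28a left out, 5 fell and 0 rose with dTAG13, against 8.21% and 4.01% of all genes, and the median was -0.32 against -0.13. Cdk6, a kinase of the early cell cycle, had a change of -1.73 (adjusted p = 0.0159 in limma) and of -1.11 without replicate 1 of dTAG13. Igf2bp2, an RNA-binding protein, fell by 1.08 on the log2 scale (adjusted p = 0.00579), and by 0.87 without that library. Myc, the growth factor-responsive transcription factor, was 43.2 and 54.7 FPKM with DMSO and 26.1 and 21.0 FPKM with dTAG13 (-1.02, adjusted p = 0.0432; -1.17 without that library). Without it 8 of the targets fell and 0 rose, against 17.0% and 6.34% of all genes. In OE 0 passed at day 2 (4 fell and 2 rose without that library), and at day 6 Myc fell (-1.37, adjusted p = 0.0303) and the cyclin Ccnd1 rose (0.92, adjusted p = 0.0141); without that library 3 fell and 5 rose at day 6. Over time in EV, 7 targets fell and 2 rose, against 10.5% and 13.3% of all genes. Their median was -0.62 against 0.04 over all genes, with Myc at -2.36, Mycn at -1.78 and Igf2bp2 at 1.51 in limma. Over time in OE 5 fell and 2 rose, against 14.7% and 17.5% of all genes. The median there was -0.03 against 0.08 over all genes. In OE Myc had a change of -4.05, the cyclin Ccnd2 of -2.51 and E2f5 of 1.19. Leaving that library out, these counts were 13 and 2 in EV and 10 and 5 in OE, beside 22.7% lower and 29.4% higher, and 25.7% and 33.2%, over all genes.

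Among the CCR4-NOT deadenylase and PUMILIO partners of NANOS proteins, all 17 listed genes were in the table and 16 were tested. In OE 0 passed at either day, but without replicate 1 of dTAG13 2 fell at day 2 and 4 rose at day 6. With dTAG13 3 fell and 0 rose, against 8.21% and 4.01% of all genes: the subunits Cnot3 (-1.41, adjusted p = 0.0146; -0.86 without replicate 1 of dTAG13) and Cnot8 (-0.67, adjusted p = 0.038; -0.34 without it), and the PUMILIO protein Pum2 (-0.86, adjusted p = 0.0289; -0.74 without it), all in limma. The list's median was -0.31. Without that library 7 fell and 0 rose, and the median was -0.40. Over time in OE 3 rose and 2 fell, against 17.5% and 14.7% of all genes, which is close to these shares. The antiproliferative deadenylase partners Btg1 (1.73) and Tob1 (1.04) were among those that rose, and Cnot11 (-0.64) among those that fell. Of Nanos1 and Nanos2, the paralogs of Nanos3, 0 of 2 were in the table, so no values can be given for them.

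Transcripts tied to DND1 and to germ cell death numbered 5, and 4 were tested. Cdkn1a, the cell cycle inhibitor p21 and a described DND1 target, was 39.7 and 36.9 FPKM in day 2 EV and 24.3 and 21.8 FPKM in day 2 OE. It fell there (-0.71, adjusted p = 0.0321 in limma). It was 31.4 and 30.6 FPKM with DMSO and 82.3 and 69.9 FPKM with dTAG13, and it rose (1.26, adjusted p = 0.000487; 1.15 without replicate 1 of dTAG13). Bak1, a pore-forming protein of apoptosis, was low, at 2.05 and 1.49 FPKM with DMSO and 0.227 and 0.516 FPKM with dTAG13. It fell (-1.01, adjusted p = 0.0156 in limma), and its change was -0.86 without replicate 1 of dTAG13. In OE over time Cdkn1a rose (1.01), as did the related inhibitor Cdkn1b (0.65), and Bax fell (-0.53).

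Other germ cell RNA-binding proteins were 15 tested genes of 18 listed. Of these, 6 rose and 0 fell over time in OE, against 17.5% and 14.7% of all genes, with a median of 0.53 against 0.08 over all genes. Dazl, a translation regulator needed for germ cell licensing, was 4.82 and 5.53 FPKM in day 6 EV and 31.7 and 22.8 FPKM in day 6 OE, and it rose (2.18, adjusted p = 0.0326 in limma). Over time in OE, Dazl (3.05), Mov10l1, a helicase of the piRNA pathway (1.99), and Ddx4, the vasa helicase (1.53), rose. With dTAG13 1 fell, Rbm46, at a low level of 0.846 and 0.752 FPKM with DMSO and 0 and 0.277 FPKM with dTAG13. Its change was -0.67 (adjusted p = 0.0403 in limma), and -0.49 without replicate 1 of dTAG13. Without that library 8 of 15 rose in OE at day 6 and 0 fell, against 1 and 0 with it, while 14.3% of all genes rose and 10.96% fell without it. Over time in OE 11 rose and 1 fell without it, against 33.2% and 25.7% of all genes.

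**Figure D4:**
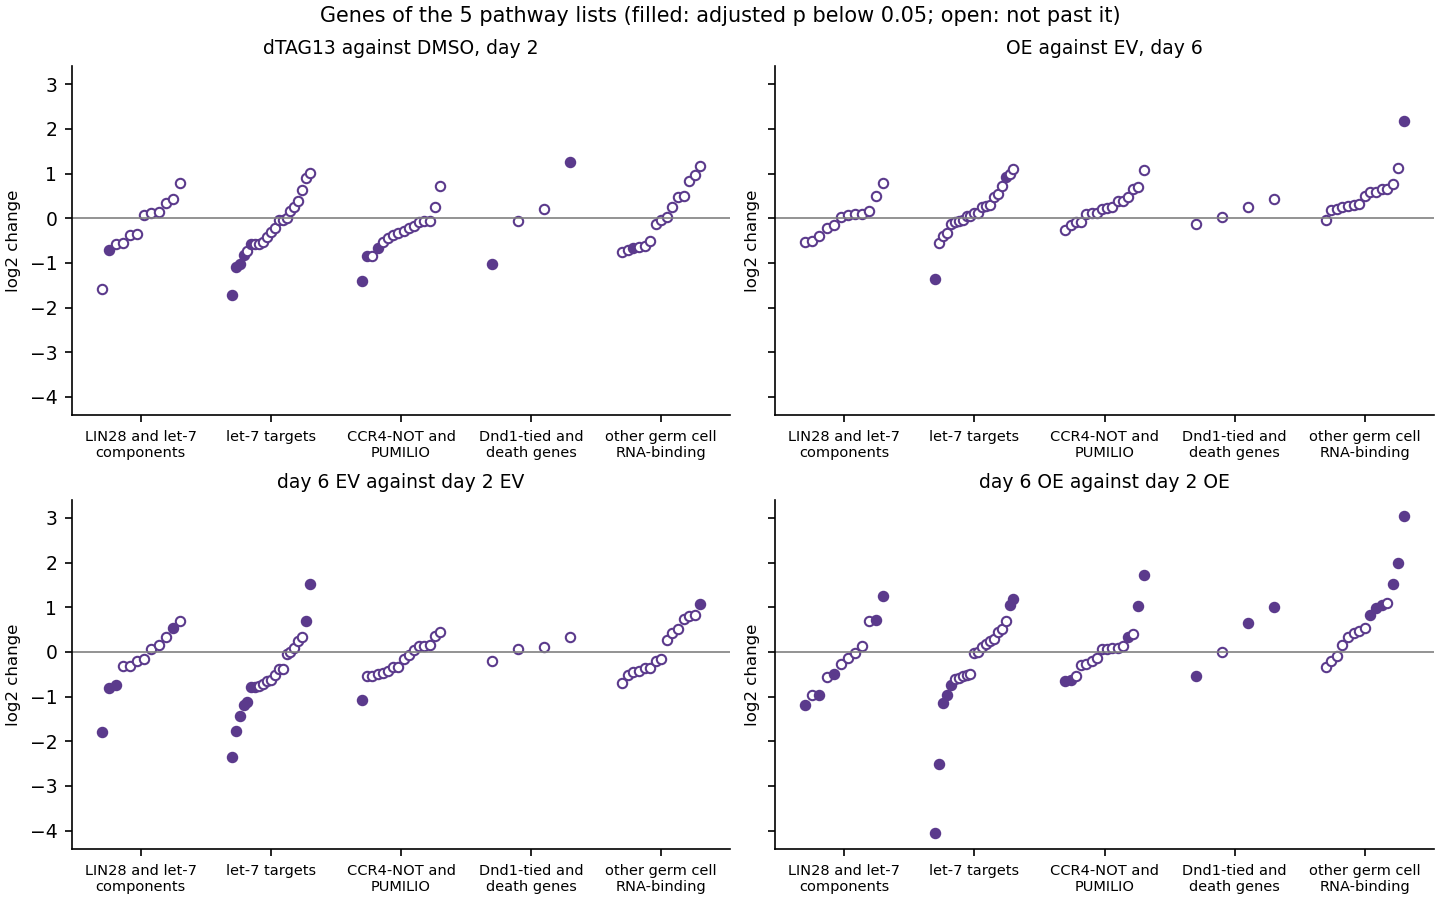
Log2 change of each tested gene of 5 gene lists, 1 point per gene, sorted within each list, in 4 comparisons; filled points have an adjusted p below 0.05. The lowest point is Myc over time in OE (-4.05), and the highest is Dazl in the same comparison (3.05).

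Likeness to each member was ranked over 8481 genes with a highest group mean of at least 5 FPKM, leaving out unnamed gene models. Genes whose levels most resembled each member were taken by Pearson's r of log2(FPKM + 1) over the 12 libraries. For Nanos3 they were Wnt7b (0.98), Anxa1 (0.97), Aldh3b2 (0.97), Rhox9 (0.97) and Rab3il1 (0.97). Wnt7b is a secreted Wnt ligand and Rhox9 a homeobox gene of the reproductive X-linked cluster. For Dnd1 they were Fam189b (0.96), Ankrd27 (0.96), Dbn1 (0.95), Tyro3 (0.95) and Ptdss2 (0.94), and for Lin28a Ubap2l (0.97), Gid8 (0.97), E2f8 (0.97), Tns3 (0.97) and Cbx7 (0.96). The libraries share groups, so r mainly reflects 6 group means. Ranked by r of the 6 group means, Wnt7b was 7th for Nanos3, Fam189b 11th for Dnd1 and Ubap2l 21st for Lin28a. Without replicate 1 of dTAG13, Wnt7b stayed the gene most like Nanos3 and Tns3 became the gene most like Lin28a, while Ptdss2 fell to the 37th place for Dnd1.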

How the data were processed

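Libraries were poly(A)-enriched from Trizol RNA, per the labels. Per the submitters' processing notes, FastQC 0.10.1, Trim Galore 0.6.3, cutadapt, STAR 2.7.6a and Cufflinks 2.2.1 were used with mm10. The deposited values are FPKM by the authors plus 1, inferred from their digits (90.9% of values from 10 to 11 had 7 digits, 0% from 12 to 100); the 1 was subtracted. Depth is not stated, so no counting interval can be given, and the strand setting is not given in the sources used here.

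Groups followed the labels, with the treatment field where a title misspelled the compound. limma 3.58.1 (R 4.3.3) was run on log2(FPKM + 1) with a trended prior, on 12059 genes with at least 1 FPKM in 2 libraries, and was tested on simulated data. An alternative pseudocount, no low-value filter, median-ratio and quantile scaling, a replicate block, quality weights, fewer groups and left-out libraries were tried. Python 3.11.15, pandas 2.3.3 and matplotlib 3.10.9 were also used. Positions and UTRs came from GENCODE M21, microRNA sequences from RefSeq.

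The members and lists were chosen with earlier results of these data known. Named genes are the members, Tex10, up to 3 changed genes per list and comparison, the 5 genes most like each member, and the nearest neighbours; Lin28b was chosen as the paralog of Lin28a. Imp3 was taken out of the let-7 targets because it is not the gene meant. Sequence motifs were chosen with the values known.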

Additional observations from a re-analysis of the deposited data

How the results depend on the processing

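Of 261 repeats of the results for the 3 genes, 223 kept direction and side of the threshold, 17 lost the call, 17 gained it and 4 turned sign; the cause was not tested. All values are log2 changes with adjusted p from limma. For Nanos3 in OE at day 2, a pseudocount of 0.1 gave -1.65 (0.0603), no filter -1.59 (0.050002) and the replicate block -1.59 (0.0731); leaving out libraries gave -1.94 to -1.24. With only the groups compared, calls were gained for Dnd1 in OE at day 2 (0.84, 0.00275), Nanos3 in OE at day 6 (-0.99, 0.00609), Lin28a in OE at day 6 (-0.90, 0.00138) and the Lin28a difference of OE effects (-1.13, 0.00614), and were lost with dTAG13 for Dnd1 (-0.65, 0.501) and Lin28a (-2.05, 0.306). With sample quality weights, calls were gained for the same 4 (0.84, 0.00302; -0.99, 0.00144; -0.90, 5.63e-05; -1.13, 0.00198), for the Dnd1 difference (-0.66, 0.036) and for Dnd1 over time in EV (0.42, 0.0287), and lost for Dnd1 with dTAG13 (-0.65, 0.557). Quantile normalization gave -1.08 (0.0213) for Lin28a in OE at day 6 and -0.52 (0.0871) for Dnd1 with dTAG13, and median-ratio scaling -0.57 (0.0791) for the latter. Leaving out libraries gave 0.70 to 0.98 for Dnd1 in OE at day 2, -1.24 to -0.75 for Nanos3 and -0.99 to -0.80 for Lin28a in OE at day 6, -0.80 to -0.52 and -1.33 to -0.93 for the Dnd1 and Lin28a differences, -0.46 to 0.11 and -0.72 to -0.59 for Nanos3 and Dnd1 with dTAG13, 0.27 to 0.56 and -1.003 to -0.60 for Dnd1 and Lin28a over time in EV, and -0.028 to 0.46 and -0.22 to 0.18 for Nanos3 and Lin28a in DMSO against EV. The calls for Nanos3 over time in EV and OE, and for Lin28a over time in OE, were kept in every alternative run.

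Over all genes, the calls depend strongly on the libraries that share the spread: OE at day 2 had 102 calls, 1032 with only its groups and 1692 without replicate 1 of dTAG13, and 1 to 19 when a compared library was left out. OE at day 6 had 448 (up to 3897, 3046, and 18 to 69), the difference 28 (up to 1275, 1339, and 2 to 7), DMSO against EV 47 (up to 583, 974, and 9 to 15), EV over time 2863 (up to 5581, 6286, and 1138 to 1549) and OE over time 3890 (up to 7577, 7096, and 1932 to 2506). For dTAG13 the 1473 calls became 0 with only its groups, 20 with quality weights, 2810 without replicate 1 and 7262 without replicate 2. At an unadjusted p below 0.05 the comparison had 3796 genes. Replicate numbers were not shown to pair the samples: the deviations of same-numbered libraries correlated at -0.13 to 0.25 over 15 pairs of groups, and the replicate block ended no other call. With crossed numbers, OE at day 6 had 325 calls and dTAG13 1414. Depth is not stated, so it cannot be said what low values could show.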
